A study of Mus musculus with 29 samples.

Results

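The 10 genes described here encode parts of the NF-κB system: 4 subunits of the transcription factor (Nfkb1, Nfkb2, Rel and Relb), 4 feedback or nuclear inhibitor-like genes (Nfkbia, Nfkbiz, Tnfaip3 and Bcl3) and 2 adhesion receptors of its target genes (Icam1 and Vcam1). They were taken by gene symbol from a count table of 55357 genes, and all 10 were present. RNA was sequenced from primary mouse cardiac fibroblasts, the matrix-producing cells of the heart, in 29 libraries of 10 groups. Fresh YCF were cells of young mice and fresh ACF cells of aged mice, sequenced directly after isolation, with 3 libraries each. The other 23 libraries came from either cell age after 48 h on DECIPHER substrates, hydrogels that carry cardiac extracellular matrix (ECM): SoftY and StiffY are the soft and stiff substrates with Y matrix, and SoftA and StiffA those with A matrix, where Y and A are read here as young and aged. Each of these 8 groups had 3 libraries, except YCF+SoftY with 2. No agent or genetic change is named for any group, while the mice's age in months, sex, strain and any pooling of animals are not stated in the labels. Replicates are named as biological but not tied to individual animals, and each p-value therefore reflects library-to-library spread.

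NF-κB is a family of dimeric transcription factors that is held in the cytoplasm by inhibitor proteins (IκB) until signals from receptors such as those for tumour necrosis factor, interleukin-1 or microbial products lead to the inhibitors' breakdown. The freed dimers switch on inflammatory genes together with their own brakes, among them Nfkbia and Tnfaip3, so that transcripts of these brakes are commonly used as a readout of recent pathway activity. In fibroblasts the pathway is known to drive chemokines, cytokines and adhesion receptors that hold leukocytes. Transcripts alone do not measure the position or activity of the NF-κB proteins, and no protein was measured in these data.

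Upstream sequence was at hand for 6 of the 10 genes, from RefSeq (mouse build GRCm38.p6, older than the mm39 build of the counts), as 9 windows of 250 bases directly before an annotated transcript start. The κB consensus, the DNA element that NF-κB dimers bind, was searched on both strands, and overlapping matches were merged. At least 1 window of Nfkb2, Rel, Nfkbia and Tnfaip3 held a match, and no window of Bcl3 or Icam1 did. Of all 32851 windows of that length, 3.9% held one. That share is per window and not per gene: Nfkb2 had 3 windows and Tnfaip3 had 2, and window 2 of Tnfaip3 held none. The first windows of all 6 genes are shown; in cultured aged cells Icam1 was higher, and the other 5 genes, with and without a match, were lower, than in fresh aged cells. Matches to the κB consensus are in capitals, written 5′ to 3′ on the gene's own strand, and a match is a description of letters, not of binding.
Nfkb2, chr19:46304487-46304736, plus strand: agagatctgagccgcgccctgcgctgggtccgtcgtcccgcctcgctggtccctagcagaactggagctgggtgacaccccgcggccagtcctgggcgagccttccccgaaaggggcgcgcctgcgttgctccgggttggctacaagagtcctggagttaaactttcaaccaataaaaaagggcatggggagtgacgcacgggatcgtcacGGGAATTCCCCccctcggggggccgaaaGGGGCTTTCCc
Rel, chr11:23770970-23771219, minus strand: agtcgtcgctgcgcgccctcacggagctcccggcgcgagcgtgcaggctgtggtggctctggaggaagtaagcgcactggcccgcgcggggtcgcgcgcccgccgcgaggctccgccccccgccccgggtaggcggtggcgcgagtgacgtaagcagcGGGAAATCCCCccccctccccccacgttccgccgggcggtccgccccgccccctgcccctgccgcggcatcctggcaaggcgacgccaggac
Nfkbia, chr12:55492648-55492897, minus strand: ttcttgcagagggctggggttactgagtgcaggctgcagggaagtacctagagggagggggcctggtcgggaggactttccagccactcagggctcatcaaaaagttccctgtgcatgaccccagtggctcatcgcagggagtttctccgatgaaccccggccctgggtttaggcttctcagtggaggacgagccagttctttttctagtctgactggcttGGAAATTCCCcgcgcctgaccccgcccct
Tnfaip3, chr10:19015411-19015660, minus strand: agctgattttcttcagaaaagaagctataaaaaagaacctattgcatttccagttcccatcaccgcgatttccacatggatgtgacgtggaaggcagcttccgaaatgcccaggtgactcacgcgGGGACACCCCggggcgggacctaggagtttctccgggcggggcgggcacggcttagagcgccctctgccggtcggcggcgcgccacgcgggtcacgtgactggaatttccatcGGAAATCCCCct
Bcl3, chr7:19822756-19823005, minus strand: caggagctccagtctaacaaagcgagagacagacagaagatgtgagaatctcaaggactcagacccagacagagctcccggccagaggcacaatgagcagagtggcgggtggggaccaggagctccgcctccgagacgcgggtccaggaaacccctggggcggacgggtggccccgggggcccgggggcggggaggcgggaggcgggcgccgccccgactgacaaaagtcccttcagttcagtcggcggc
Icam1, chr9:21015690-21015939, plus strand: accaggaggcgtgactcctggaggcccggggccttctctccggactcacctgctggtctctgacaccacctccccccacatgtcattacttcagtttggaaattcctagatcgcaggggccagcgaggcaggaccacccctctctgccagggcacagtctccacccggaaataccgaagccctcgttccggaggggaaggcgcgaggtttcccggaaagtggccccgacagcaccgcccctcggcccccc

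Nfkb2 had a pair of matches in this window, the nearer one ending 2 bases before the start, and Rel had 1 match, read on both strands. In Nfkbia the match ended 20 bases before the start, and in Tnfaip3 the matches ended 116 and 3 bases before it. In Bcl3 and Icam1 these letters were not found within 250 bases of the start. That says nothing of sites elsewhere, or of sites in these windows that depart from the consensus. The Icam1 window holds tggaaattcc, which departs from it in its first letter only. Vcam1, Nfkb1, Relb and Nfkbiz had no entry in the sequence table.

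Totals ran from 1192668 to 3275089 counts per library, and levels are given as counts per 1000000 counts (CPM) of the library total after TMM scaling. Fibroblast markers, 12 genes with collagens, Dcn and Pdgfra among them, summed to between 7085 and 38757 CPM, and none of them was at 0 in any group. Fresh libraries also held macrophage and myeloid markers, with a sum of 218 to 220.5 CPM in fresh YCF, 389.9 to 441 CPM in fresh ACF and 23.4 to 68.2 CPM in the cultured libraries. YCF+SoftA replicate 3 differed from replicates 1 and 2 of its group with a chi-square per degree of freedom of 5.56 and 10.1. The other pairs of replicates ran from 1.81 to 5.79, so that only the value with replicate 2 stood apart. Replicate 3 is called divergent on that basis and is left out as an alternative below. No pair of libraries agreed within sampling noise. Fresh and cultured libraries carry different library letters in the labels, and each substrate has a letter of its own, shared by both cell ages. If the letters mark preparation, its effect and that of culture, stiffness or matrix cannot be told apart.

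The first comparison asked how fresh aged cells differ from fresh young cells. Nfkbiz, Tnfaip3, Nfkbia and Vcam1 were higher in fresh ACF and Nfkb1 was lower, and the other 5 genes, Bcl3 among them, did not pass the test. Nfkbiz, which encodes the nuclear protein IκBζ, a co-activator of a subset of NF-κB targets, measured 62.3, 59.2 and 50.5 CPM in the 3 fresh YCF libraries and 215, 206 and 214 CPM in the 3 fresh ACF libraries. All 3 aged libraries lay above all 3 young ones, with a log2 fold change of 1.84 ± 0.09 (SE, adjusted p = 3.48e-09, edgeR's quasi-likelihood test with Benjamini-Hochberg adjustment over 11786 genes), or 3.58-fold. Tnfaip3, whose product A20 is a ubiquitin-editing enzyme that shuts off signalling upstream of NF-κB, rose by about the same amount, from 48.6, 52.0 and 43.5 CPM to 194, 183 and 163 CPM (log2 fold change 1.86 ± 0.10, adjusted p = 9.16e-09). These groups did not overlap either.

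Nfkbia, the gene of the classical cytoplasmic inhibitor IκBα, rose less. Its levels were 213, 208 and 219 CPM in fresh YCF and 281, 291 and 299.7 CPM in fresh ACF, with no overlap (log2 fold change 0.41 ± 0.06, adjusted p = 0.000227). Bcl3, an atypical IκB protein that acts with p50 and p52 dimers in the nucleus, rested on 9 to 29 counts per fresh library. It measured 9.93, 7.18 and 4.21 CPM in fresh YCF and 3.72, 4.14 and 3.53 CPM in fresh ACF, and the difference of -0.97 ± 0.39 did not pass the test (adjusted p = 0.0734). The young libraries were spread widely and the lowest of them lay just above the highest aged one.

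Vcam1, the receptor for the leukocyte integrin α4β1, was 961, 939.9 and 1004 CPM in fresh YCF and 2339, 2438 and 2395 CPM in fresh ACF. That is a 2.41-fold rise with tight replicates (log2 fold change 1.27 ± 0.04, adjusted p = 5.61e-11). Icam1, the receptor for the β2 integrins LFA-1 and Mac-1, stayed within 41.6 to 52.3 CPM in fresh YCF and 50.1 to 57.4 CPM in fresh ACF. These ranges overlapped, and the difference of 0.15 ± 0.13 did not pass (adjusted p = 0.431), with a 95% interval from -0.14 to 0.43.

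Among the subunits, Nfkb1 (precursor of p50) was 64.4, 79.0 and 69.2 CPM in fresh YCF and 51.2, 57.6 and 56.4 CPM in fresh ACF, a fall of 0.40 on the log2 scale (SE 0.12, adjusted p = 0.0199). That call was lost by DESeq2 (adjusted p = 0.062) and without fresh YCF replicate 2 (0.13) or fresh ACF replicate 1 (0.0805). Rel (c-Rel) measured 42.5, 44.0 and 51.4 CPM against 73.5, 50.1 and 60.3 CPM, which overlap, with a log2 fold change of 0.39 ± 0.15 and an adjusted p of 0.0671. Nfkb2 (precursor of p52) and Relb (RelB, the partner of p52 in the non-canonical pathway) differed by 0.16 ± 0.10 and 0.04 ± 0.13, neither of which passed (adjusted p = 0.249 and 0.845).

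In all, 4 of the 10 genes rose and 1 fell with age in fresh cells, where 15% of all genes tested rose and 16.8% fell (31.8% called in either direction). The median log2 fold change of the 10 was 0.27, beside -0.02 over all genes tested. Of 94 further pathway genes, 78 could be tested, of which 34 rose and 11 fell. The other NF-κB targets made up most of this, with 21 of 29 higher and 2 lower: the chemokine gene Ccl2 rose by 0.31 ± 0.03 (adjusted p = 4.73e-06), the superoxide dismutase gene Sod2 by 0.47 ± 0.04 (1.6e-06) and Il6 by 0.26 ± 0.10 (0.0479). Receptors split evenly, with 4 higher and 4 lower of 12, as Tlr4 rose by 0.95 ± 0.15 (adjusted p = 0.000265) and Tnfrsf1a, the main receptor for tumour necrosis factor, changed by -0.59 ± 0.10 (0.000383).

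Of 25 adaptors and kinases tested in fresh cells, 5 rose and 3 fell, and the scaffold of the IκB kinase, Ikbkg, was among the former (0.63 ± 0.11, adjusted p = 0.000579). Rela, which encodes the p65 subunit, had a mean of 70.4 ± 48.7 CPM (SD, n = 3) in fresh YCF and 116 ± 32.4 CPM in fresh ACF, and its difference of 0.67 ± 0.33 did not pass (adjusted p = 0.14). The ligand gene Il1b summed to 18 counts over the fresh YCF libraries and 49 over the fresh ACF libraries (log2 fold change 1.60 ± 0.38, adjusted p = 0.00544), and Tnf to 17 and 29 counts, too few to enter the test. Other inhibitor genes moved in both directions, 2 higher and 2 lower of 12, and Tnip1, an A20-binding partner, fell by 0.49 (SE 0.08, adjusted p = 0.00028). Among 10 other adhesion molecules 4 rose and 2 fell, with Icam2, an endothelial relative of Icam1, at 1.44 ± 0.40 (adjusted p = 0.0131). Traf1, an adaptor gene that is itself an NF-κB target, rose by 1.05 ± 0.33 (0.0243), and the inhibitor genes Nfkbib and Nfkbie did not pass (0.17 ± 0.11 and -0.25 ± 0.23, adjusted p = 0.262 and 0.447).

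Markers of other cell types moved beside these genes in fresh cells. Of 10 macrophage and myeloid markers tested, 6 were higher in fresh ACF and none lower, and none of the 12 on the list was at 0 in either fresh group. Of 12 fibroblast markers, 3 were higher and 7 lower, and 2 of 3 pericyte and smooth muscle markers were lower. The endothelial markers summed to 181 to 199 CPM in fresh YCF and 240.2 to 249 CPM in fresh ACF, with 2 of 11 higher. Neutrophil markers summed to 0.93 to 4.79 CPM and 9.50 to 12.4 CPM, with S100a9, Ly6g and Retnlg at 0 in both groups, and lymphocyte markers to at most 1.03 CPM. In bulk RNA, more cells of a type and more RNA per cell cannot be told apart, and the part of these cells in the higher Vcam1, Nfkbiz, Tnfaip3 and Nfkbia was not tested.

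**Figure D1:**
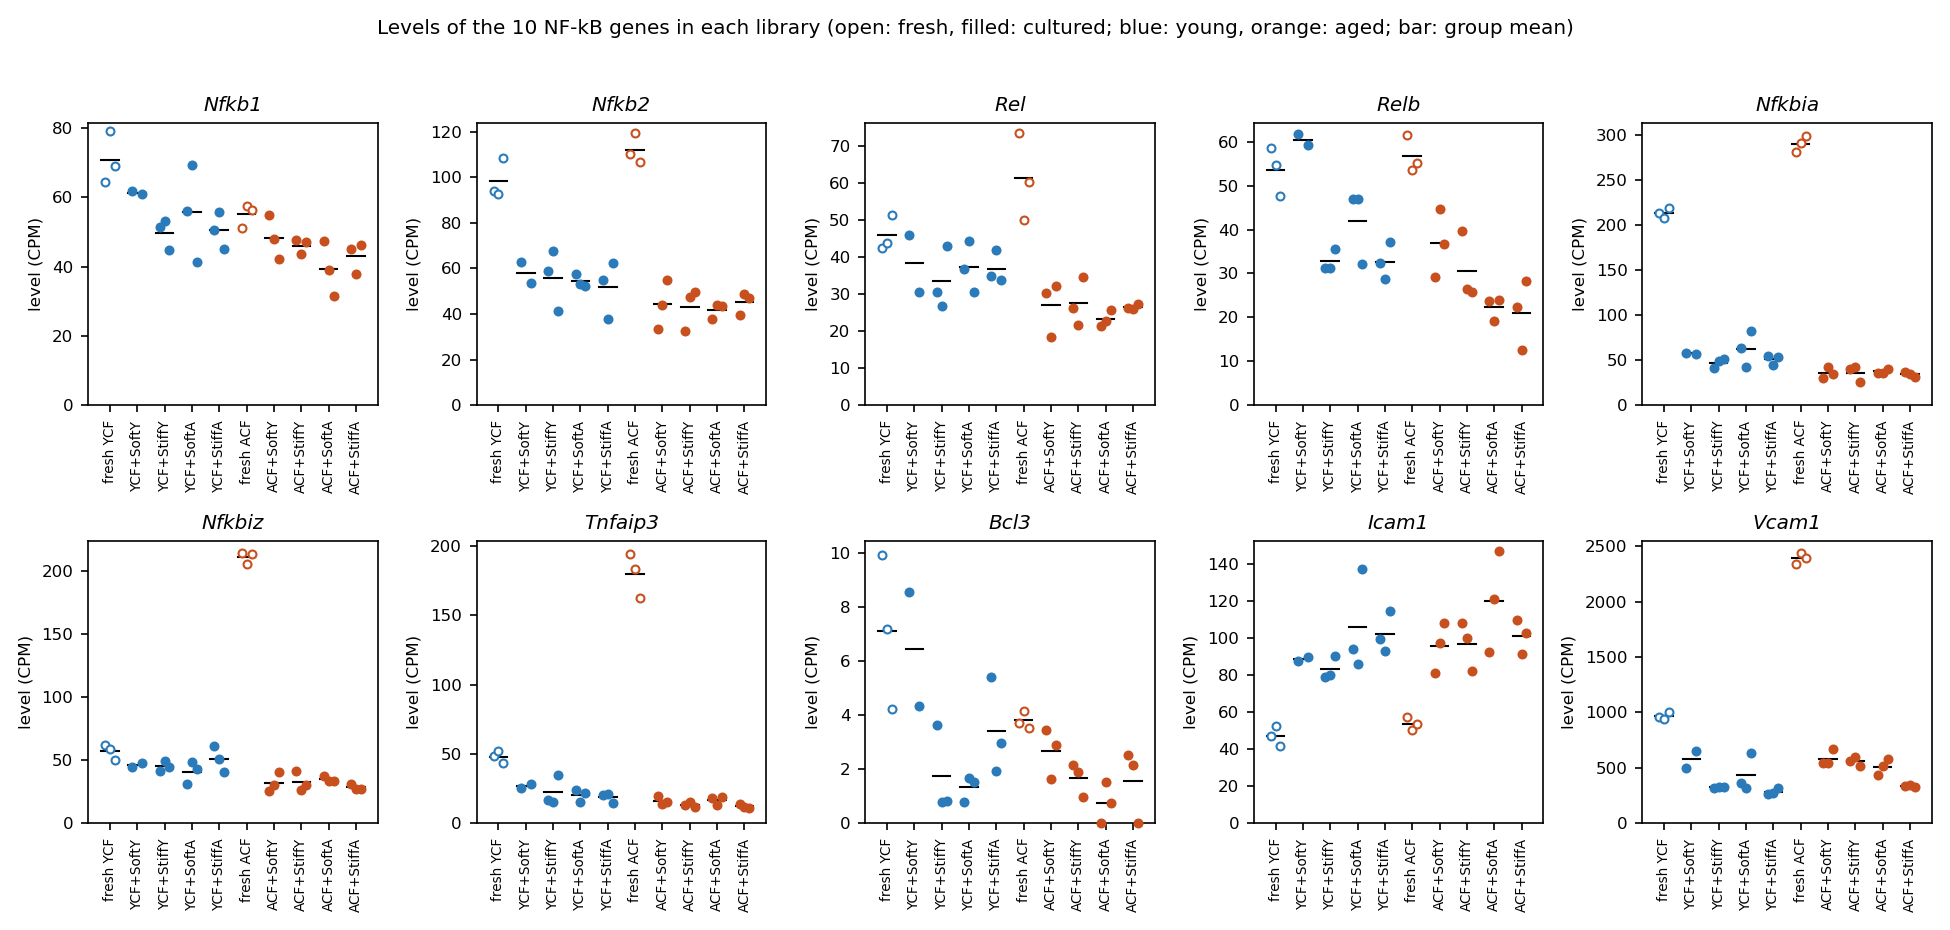
Level in CPM (vertical axes, each from 0) of each of the 10 genes in each library, by group; open circles are fresh cells, filled circles cultured cells, blue young cells, orange aged cells, and bars group means. Fresh ACF stand above every other group for Nfkbia, Nfkbiz, Tnfaip3 and Vcam1, and all 23 cultured libraries lie above all 6 fresh libraries for Icam1.

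The second comparison set cells after 48 h of culture, as the mean of the 4 substrates, against fresh cells of the same age. Transcripts of the brakes and of Vcam1 fell in both cell ages and Icam1 rose in both. Nfkbia fell from 208 to 219 CPM in fresh YCF to between 41.0 and 82.8 CPM in the 11 cultured young libraries, a log2 fold change of -1.99 ± 0.11 (adjusted p = 7.79e-16). In aged cells it fell from 281 to 299.7 CPM to between 25.7 and 42.5 CPM in 12 libraries (-3.02 ± 0.11, adjusted p = 4.68e-21), which is 8.09-fold lower. No cultured library reached the lowest fresh library.

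Tnfaip3 fell furthest of the 10 in aged cells, to between 10.8 and 19.7 CPM (log2 fold change -3.63 ± 0.13, adjusted p = 9.63e-21), 12.4-fold below fresh ACF. In young cells its cultured libraries lay between 14.8 and 34.8 CPM (-1.19 ± 0.15, adjusted p = 7.98e-08), below all fresh YCF libraries. Nfkbiz fell to between 25.3 and 41.8 CPM in aged cells (-2.73 ± 0.11, adjusted p = 1.28e-19). In young cells it ranged from 30.7 to 61.3 CPM, which overlaps fresh YCF, and its fall of 0.33 on the log2 scale (SE 0.13, adjusted p = 0.0289) was lost without fresh YCF replicate 1 or 2, YCF+SoftY replicate 1 or YCF+SoftA replicate 1, with adjusted p from 0.0504 to 0.206. It was also lost without a low-count filter (0.0667), in a fit of young cells alone (0.0691) and without the 4 shallowest libraries, of 1192668 to 1329591 counts (0.118).

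Bcl3 stood at 0 to 26 counts per cultured library, and 1 ACF+SoftA and 1 ACF+StiffA library had none. Its change was -1.36 ± 0.39 in young cells (adjusted p = 0.00409) and -1.21 ± 0.47 in aged cells (adjusted p = 0.0273). The former call was lost without fresh YCF replicate 1 (adjusted p = 0.0699) and the latter without any of the 3 fresh ACF libraries (0.0554 to 0.0846).

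The subunit genes fell as well, by smaller amounts. Nfkb2 went from 92.8 to 108 CPM in fresh YCF to between 37.7 and 67.6 CPM in cultured young cells (log2 fold change -0.82 ± 0.13, adjusted p = 2.29e-06), and from 107 to 119 CPM in fresh ACF to between 32.7 and 54.9 CPM in cultured aged cells (-1.36 ± 0.13, adjusted p = 8.28e-11). The fresh and cultured ranges did not overlap at either age. Rel fell in aged cells, from 50.1 to 73.5 CPM to between 18.5 and 34.7 CPM (-1.22 ± 0.15, adjusted p = 2.12e-08). In young cells its ranges overlapped and the difference of -0.33 ± 0.15 did not pass (adjusted p = 0.068).

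Relb changed by -0.40 ± 0.15 in young cells (adjusted p = 0.0214, lost without fresh YCF replicate 1 or 2, at 0.148 and 0.0727, and without the 4 shallowest libraries, at 0.0566) and by -1.08 ± 0.15 in aged cells (adjusted p = 2.27e-07). The young mean covers 2 libraries on SoftY at 61.7 and 59.2 CPM, above fresh YCF at 58.5, 54.6 and 47.7 CPM, while the other 9 cultured young libraries lay between 28.7 and 47.0 CPM. Nfkb1 changed by -0.38 ± 0.12 in young cells (adjusted p = 0.00571, lost without fresh YCF replicate 2 at 0.0849) and by -0.33 ± 0.12 in aged cells (0.0178). The latter call was lost without fresh ACF replicate 2 or 3 (0.0775 and 0.0648), with library totals in place of TMM (0.0627) and without a low-count filter (0.0641).

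The adhesion receptors moved in opposite directions. Vcam1 fell from 939.9 to 1004 CPM in fresh YCF to between 261 and 653 CPM in cultured young cells (log2 fold change -1.32 ± 0.11, adjusted p = 9.5e-12) and from 2339 to 2438 CPM in fresh ACF to between 329.6 and 666 CPM in cultured aged cells (-2.29 ± 0.10, adjusted p = 1.5e-18), 4.91-fold lower. Icam1 rose from 41.6 to 52.3 CPM to between 78.8 and 137 CPM in young cells (0.99 ± 0.14, adjusted p = 2.66e-07) and from 50.1 to 57.4 CPM to between 81.1 and 147 CPM in aged cells (0.94 ± 0.13, adjusted p = 4.09e-07). Its lowest cultured library lay above its highest fresh library.

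Counted together, 8 of the 10 genes fell and 1 rose in young cells, where 29.9% of all genes fell and 27.1% rose (56.9% called). In aged cells 9 fell and 1 rose, where 32.5% fell and 29.9% rose (62.4% called). The median log2 fold change of the 10 was -0.61 in young and -1.29 in aged cells, beside -0.03 and -0.01 over all genes.

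Most other NF-κB targets fell with culture too: of 30 tested, 24 were lower and 4 higher in young cells, and the aged cells had 25 lower and 3 higher. Ccl2 had log2 fold changes of -3.08 ± 0.04 in young and -4.67 ± 0.04 in aged cells (adjusted p = 2.43e-30 and 4.47e-36), Sod2 of -2.31 ± 0.05 and -3.24 ± 0.05 (7.48e-26 and 1.33e-30) and Il6 of -1.85 ± 0.10 and -2.62 ± 0.10 (4.18e-16 and 1.67e-20). Traf1 changed by -3.68 ± 0.56 and -5.08 ± 0.47 (1.99e-06 and 2.17e-10). Tnf and Il1b, ligands that switch the pathway on, had 0 counts in all 23 cultured libraries and were thus not detectable at this depth. Of 7 ligand genes tested, 5 were lower at each age, and 1 and 2 higher. Receptor genes went both ways, with 3 of 12 higher against 5 lower in the young comparison and 4 against 6 in the aged one.

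Not every gene of the pathway fell. Rela changed by 0.71 ± 0.31 in young cells, which did not pass (adjusted p = 0.0555), and by -0.66 ± 0.29 in aged cells (0.048). Map3k14, which encodes NIK, the kinase of the non-canonical branch that leads to p52 and RelB, rose by 1.33 ± 0.22 in young cells (adjusted p = 6.3e-06) and by 1.95 ± 0.24 in aged cells (2.07e-08). The 26 adaptors and kinases were split, with 8 higher and 7 lower in the young and 6 higher and 8 lower in the aged comparison. So were 14 other inhibitors, with 3 higher at each age and 4 and 5 lower, Nfkbib among the latter (-1.06 ± 0.12 and -1.26 ± 0.12, 5.25e-09 and 7.22e-11). The 13 other adhesion molecules had 6 higher and 3 lower in the young and 5 higher and 6 lower in the aged comparison. Tlr2 and Tlr4 fell in both ages (Tlr4 by 1.65 in aged cells, SE 0.19, adjusted p = 7.51e-09). Itgb1, the β1 chain of the integrin that binds Vcam1, rose at both ages (1.33 ± 0.18 in young, 0.74 ± 0.17 in aged, adjusted p = 1.89e-07 and 0.000408). Itgb2, the leukocyte chain of the receptors that bind Icam1, fell (-2.99 ± 0.25 and -4.75 ± 0.26, 1.02e-11 and 4.9e-16).

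Itgb2 is a leukocyte gene, and the macrophage and myeloid markers fell beside it: 8 of 10 tested were lower in cultured young cells and 10 of 10 in cultured aged cells, and 1 to 3 of the 12 were at 0 in each cultured group, Fcgr1, Ptprc, Adgre1, C1qa, C1qb and Tyrobp among them. Endothelial markers fell as well (young cells 10 of 11, aged cells 9 of 11, and 1 higher in both), to sums of 79.5 to 213 CPM. Fibroblast markers mostly rose, 10 of 12 with 1 lower for young cells, and 8 of 12 with 2 lower for aged cells. Their part in the lower NF-κB feedback genes was not tested.

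**Figure D2:**
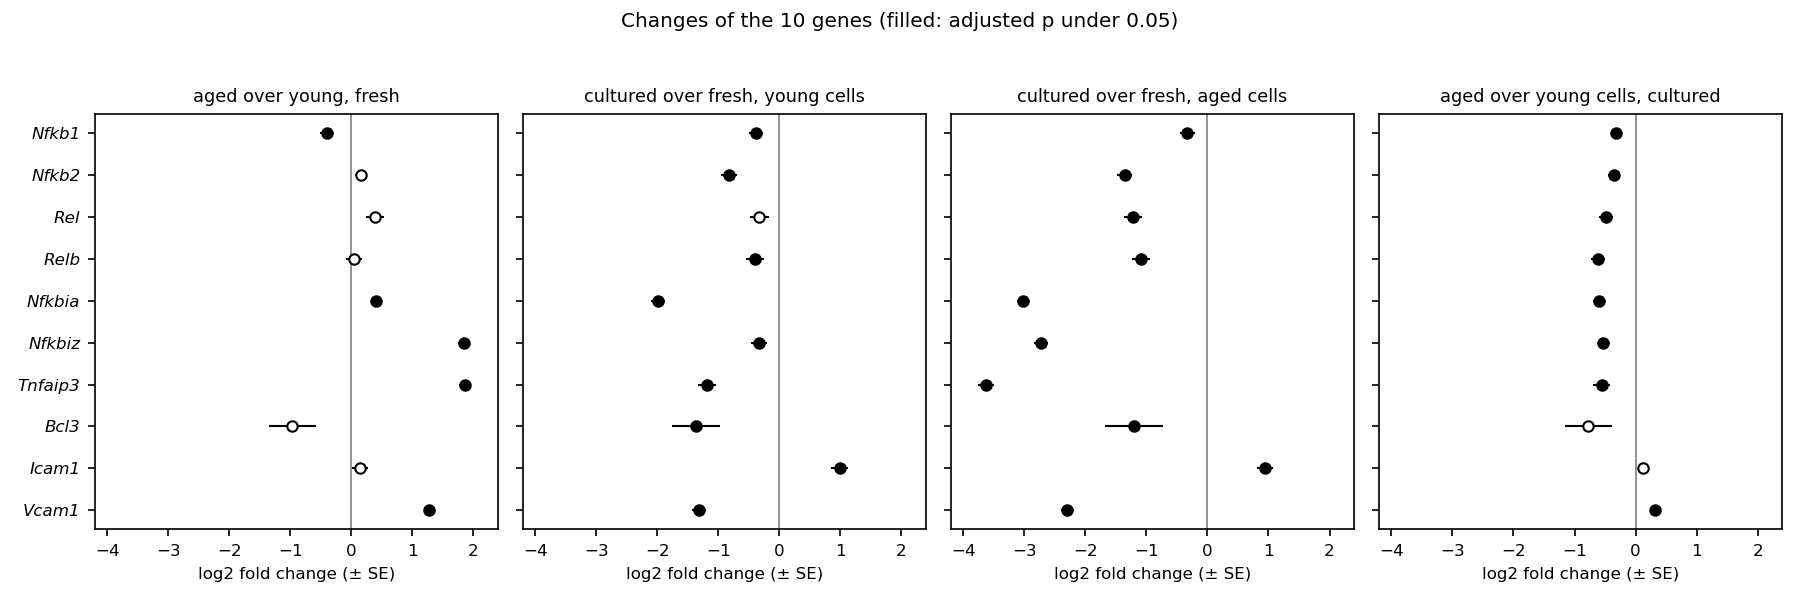
Log2 fold change with its SE (horizontal axes) of each of the 10 genes in 4 comparisons; filled circles passed an adjusted p under 0.05 in edgeR's quasi-likelihood test and open circles did not. Nfkbia, Nfkbiz, Tnfaip3 and Vcam1 lie to the right of 0 for aged over young fresh cells. For cultured over fresh cells they lie to the left of 0, furthest in aged cells, and Icam1 is the one gene to the right at both ages. For aged over young cultured cells Nfkbia, Nfkbiz and Tnfaip3 lie to the left of 0 and Vcam1 to the right.

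Whether the change with culture differed between the ages was tested as an interaction, the aged change minus the young change. 7 of the 10 genes fell further in aged cells and none less, where 10.1% of all genes were called in that direction and 10.5% in the other (20.6% in all). Tnfaip3 and Nfkbiz had differences of -2.44 ± 0.22 and -2.40 ± 0.18 (adjusted p = 3.77e-10 and 8.04e-12), followed by Nfkbia at -1.03 ± 0.17 (2.44e-05), Vcam1 at -0.98 ± 0.16 (3.62e-05), Rel at -0.89 ± 0.22 (0.00303), Relb at -0.68 ± 0.21 (0.0225) and Nfkb2 at -0.53 ± 0.19 (0.0398). The fresh libraries enter both this value and the comparison of fresh ages, so that the higher start of fresh ACF is part of it. The Nfkb2 call was lost in 18 of 36 alternatives, 17 of them the loss of 1 library, and the Relb call in 4, among them without fresh YCF replicate 2 or 3 or fresh ACF replicate 1 (adjusted p = 0.053 to 0.0763).

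Icam1 showed no such difference at this precision (-0.05 ± 0.19, adjusted p = 0.905), with a 95% interval from -0.43 to 0.33, nor did Nfkb1 (0.05 ± 0.17, 0.884, interval -0.29 to 0.40). For Bcl3 the interval ran from -1.22 to 1.52, too wide to tell. Rela, the subunit gene outside the 10, had a difference of -1.37 ± 0.43 (adjusted p = 0.0213). Of the 30 other targets tested, 19 fell further in aged cells and 1 less, with Ccl2 at -1.58 ± 0.07 (adjusted p = 3.31e-17) and Sod2 at -0.93 ± 0.08 (1.46e-10). Myeloid markers did so too, 7 of 10, and their part was not tested.

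In culture, aged cells were compared with young cells over the 4 substrates. Libraries were taken as independent, and any that share a preparation were not blocked. All 4 subunit genes and 3 brakes were lower in cultured aged cells, the reverse of the order of Nfkbia, Nfkbiz and Tnfaip3 in fresh cells, and Vcam1 was again higher. Relb ranged from 28.7 to 61.7 CPM in 11 young libraries and from 12.5 to 44.7 CPM in 12 aged libraries (log2 fold change -0.61 ± 0.11, adjusted p = 0.000481). Rel ranged from 26.9 to 46.0 CPM and from 18.5 to 34.7 CPM (-0.48 ± 0.11, 0.00445). Nfkb2 and Nfkb1 changed by -0.35 ± 0.10 and -0.32 ± 0.09 (0.0212 and 0.0114), and the Nfkb2 call was lost without YCF+SoftY replicate 1 (0.0775). The ranges of the ages overlapped for each subunit.

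Nfkbia was 41.0 to 82.8 CPM in cultured young and 25.7 to 42.5 CPM in cultured aged libraries, with overlap between the lowest young libraries, at 41.0 and 42.0 CPM, and the highest aged ones, at 42.1 and 42.5 CPM (log2 fold change -0.59 ± 0.10, adjusted p = 0.000176). Nfkbiz changed by -0.53 ± 0.10 (0.000604) and Tnfaip3 by -0.56 ± 0.14 (0.00676), the latter not called without the 4 shallowest libraries (0.0557). As a mean over the substrates, Vcam1 was higher in aged cells by 0.32 ± 0.08 (0.0119). Its libraries lay at 261 to 653 CPM against 329.6 to 666 CPM, ranges that overlap nearly throughout. Young and aged group means were 576 and 583 CPM on SoftY, 325 and 559 CPM on StiffY, 437 and 512 CPM on SoftA, and 282 and 337 CPM on StiffA. The call was lost without YCF+SoftY replicate 1, which leaves 1 library there, at a change of 0.28. Without the divergent YCF+SoftA replicate 3 the change was 0.42 (6.11e-06). Icam1 and Bcl3 differed by 0.13 ± 0.08 and -0.78 ± 0.39, which did not pass (0.344 and 0.191).

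Thus 7 of the 10 genes were lower and 1 higher in cultured aged cells, where 8.5% of all genes were lower and 6.52% higher (15% called). Their median log2 fold change was -0.50, beside 0.00 over all genes tested. Of 24 other targets tested, 16 were lower and none higher: Ccl2 by 1.25 on the log2 scale, from means of 496 to 1146 CPM in the young groups to 230.5 to 407 CPM in the aged groups (log2 fold change -1.25 ± 0.04, adjusted p = 6.34e-18), Il6 by -0.48 ± 0.08 (0.000263) and Sod2 by -0.43 ± 0.04 (5.9e-08). Rela also fell (-0.66 ± 0.18, 0.0132), as did Cyld, a deubiquitinase that restrains the pathway (-0.31 ± 0.06, 0.00162), and Birc3, an inhibitor of apoptosis that acts in receptor complexes (-0.55 ± 0.12, 0.00247). The IκB kinase genes Ikbkb and Ikbkg differed by -0.10 ± 0.06 and -0.07 ± 0.06 and did not pass (0.262 and 0.485).

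Endothelial markers were higher in cultured aged cells, 8 of 10 tested with 1 lower, at sums of 112 to 213 CPM against 79.5 to 145 CPM, and stood beside the higher Vcam1, a gene that endothelial cells also express. Of 4 myeloid markers tested, 1 was lower and none higher, and 9 of 12 fibroblast markers were lower. Their part was not tested.

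**Figure D3:**
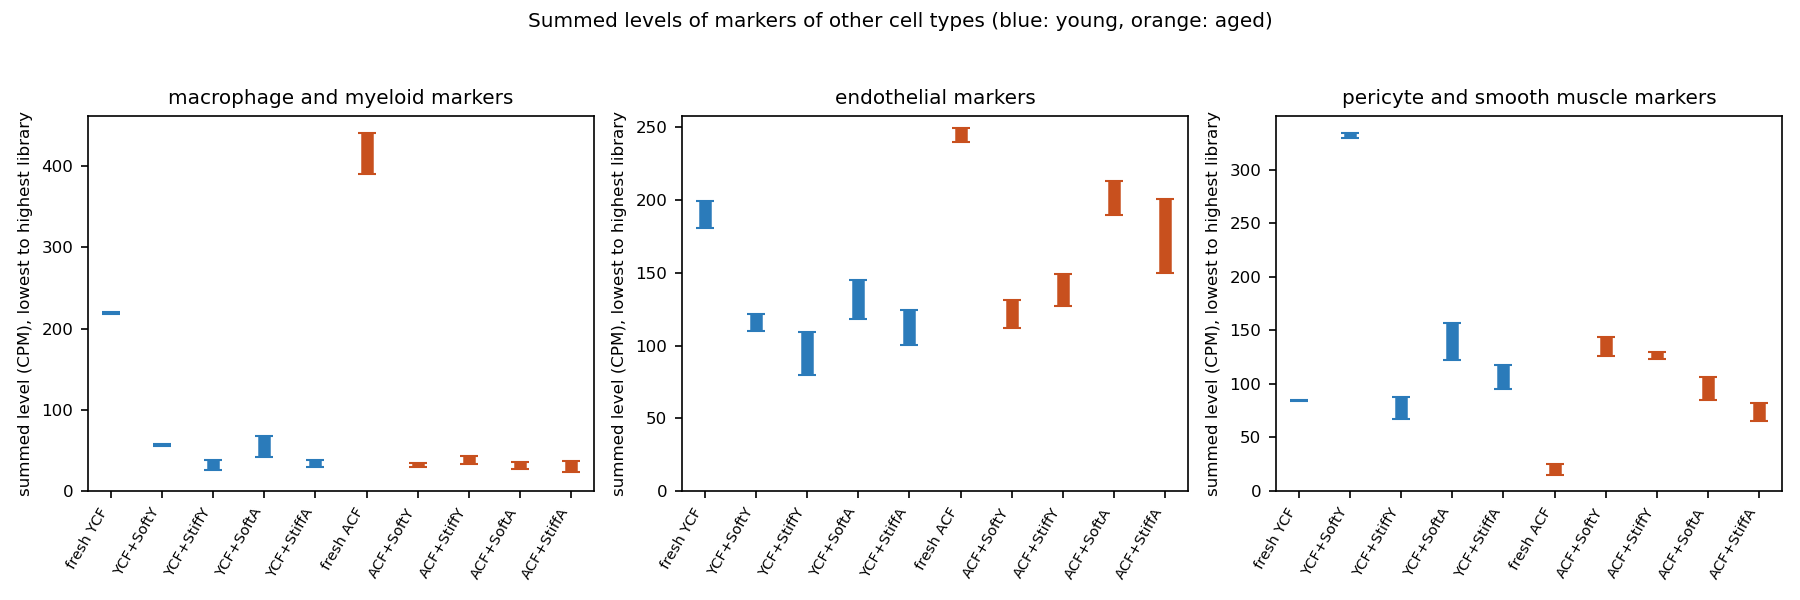
Summed level in CPM (vertical axes, from 0) of 12 macrophage and myeloid, 12 endothelial and 8 pericyte and smooth muscle markers, drawn as a bar from the lowest to the highest library of each group; blue is young and orange aged. Myeloid markers peak in fresh ACF at 389.9 to 441 CPM, and pericyte markers peak in YCF+SoftY at 329.8 to 334 CPM. Endothelial markers are higher in aged than young cells when fresh and on StiffY, SoftA and StiffA, while the ages overlap on SoftY.

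The substrates were compared within each cell age, and here Relb and Vcam1 were the members that were called. In young cells Vcam1 was 499 and 653 CPM on SoftY, 315, 328 and 330.4 CPM on StiffY, 359.6, 321 and 631 CPM on SoftA and 261, 272 and 314 CPM on StiffA. Stiff libraries lay below soft ones except that the lowest soft library fell within the stiff range. Stiff over soft gave a log2 fold change of -0.73 ± 0.12 (adjusted p = 0.000501), and -0.55 without the divergent YCF+SoftA replicate 3 (0.000128). Relb was 61.7 and 59.2 CPM on SoftY, 31.4, 31.2 and 35.6 CPM on StiffY, 46.9, 47.0 and 32.2 CPM on SoftA and 32.3, 28.7 and 37.1 CPM on StiffA. The SoftY libraries stood apart from all others, and stiff over soft gave -0.64 ± 0.16 (0.0203), or -0.71 without YCF+SoftA replicate 3 (0.00741).

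The Relb call was lost without YCF+SoftY replicate 1, YCF+StiffY replicate 1 or 2, YCF+SoftA replicate 1 or 2 or YCF+StiffA replicate 2, with adjusted p of 0.0528 to 0.0755 and log2 fold changes of -0.63 to -0.59. The other 8 genes did not pass (adjusted p of 0.356 or more), with log2 fold changes from -0.28 for Nfkbia through -0.24 for Bcl3, -0.23 for Nfkb1, -0.22 for Tnfaip3, -0.15 for Rel, -0.07 for Icam1 and -0.05 for Nfkb2 to 0.14 for Nfkbiz. The called 2 of 10 genes, both lower on stiff substrates, stand beside 1.9% of all genes lower and 1.66% higher (3.56% called). Of 24 other targets tested, 9 were lower and 1 higher on stiff substrates in young cells, with Ccl2 at -0.88 ± 0.06 (1.84e-10) and Sod2 at -0.37 ± 0.06 (0.000616), and so were the interleukin-1 receptor gene Il1r1 (-0.38 ± 0.07, 0.00137) and Tnip1 (-0.50 ± 0.12, 0.00972). Pericyte and smooth muscle markers summed to 329.8 to 334 CPM in YCF+SoftY, the group with the highest Relb, and to 65.4 to 157 CPM in the other cultured groups, with Vtn at 0 in every group; their part was not tested.

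In aged cells stiffness changed none of the 10 genes in edgeR's test, where 0.288% of all genes were lower and 0.00779% higher (0.296% called). DESeq2 and limma called none either, and Vcam1 alone had an unadjusted p under 0.05. Its level was 540.1, 543 and 666 CPM on SoftY, 563, 596 and 519 CPM on StiffY, 439, 512 and 583 CPM on SoftA and 339, 341 and 329.6 CPM on StiffA, so that StiffA was the low group and the other 3 overlapped. The mean over both matrices was -0.33 ± 0.12 (adjusted p = 0.534). It passed in a fit of aged cells alone (-0.33, 0.0368), without a low-count filter (0.00386), without the 4 shallowest libraries (0.0237) and when YCF+SoftA replicate 3 was left out of the shared fit (0.0443). The difference of the stiffness effect between ages was 0.39 ± 0.17 for Vcam1 and 0.46 ± 0.23 for Relb, neither of which passed (0.519 and 0.644), so a difference between young and aged cells in this response is not shown for them. The same difference passed for the targets Ccl2 (0.66 ± 0.08, 1.2e-05) and Sod2 (0.36 ± 0.09, 0.0491), which fell on stiff substrates in young cells. In aged cells Ccl2 itself changed by -0.22 ± 0.06 (0.134).

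Relb and Vcam1 were lower on aged than on young matrix in aged cells. Relb was 29.2, 44.7 and 36.7 CPM on SoftY, 39.6, 26.5 and 25.7 CPM on StiffY, 23.7, 19.2 and 23.9 CPM on SoftA and 22.3, 12.5 and 28.3 CPM on StiffA. All A-matrix libraries but 1 lay below all Y-matrix libraries, and the log2 fold change was -0.63 ± 0.16 (adjusted p = 0.0162). Vcam1 changed by -0.45 ± 0.12 (0.0153). Its SoftA libraries, at 439 to 583 CPM, overlapped SoftY at 540.1 to 666 CPM. StiffA, at 329.6 to 341 CPM, lay below StiffY at 519 to 596 CPM. The Relb call was lost without ACF+SoftY replicate 2, ACF+StiffY replicate 1, ACF+SoftA replicate 2 or ACF+StiffA replicate 2 (adjusted p = 0.0525 to 0.062), and the Vcam1 call without ACF+SoftY replicate 3 (0.054). Across all genes 3.3% were lower and 4.14% higher on aged matrix (7.44% called). Ccl2 and Il1r1 fell beside them (-0.59 ± 0.06 and -0.30 ± 0.07, 6.86e-08 and 0.00573), and the endothelial markers stood at 149.96 to 213 CPM on A matrix against 112 to 149 CPM on Y matrix.

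In young cells none of the 10 genes was called for the age of the matrix by edgeR, where 1.67% of all genes were higher and 0.825% lower (2.49% called), nor by DESeq2, while limma called 1, Vcam1. The unadjusted p was under 0.05 for Icam1 and Vcam1, which changed by 0.27 ± 0.12 and -0.30 ± 0.12 (adjusted p = 0.336 and 0.254). Vcam1 depended on YCF+SoftA replicate 3, at 631 CPM against 359.6 and 321 CPM in the other SoftA libraries: without it the change was -0.50 (adjusted p = 0.000934). Of the targets, Ccl2 was lower (-0.32 ± 0.06, 0.00143) and Il6 higher (0.54 ± 0.12, 0.0113) on aged matrix in young cells. The difference of the matrix effect between ages did not pass for any of the 10 in edgeR, DESeq2 or limma, and none had an unadjusted p under 0.05 (0.0935% of all genes were called, 0.0701% lower in this sense).

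Matrix and stiffness were varied together between SoftY and StiffA. In young cells Vcam1 fell by 1.03 on the log2 scale (SE 0.18, adjusted p = 0.000506), 2.04-fold, and Relb by 0.89 (SE 0.23, 0.0172). In aged cells they fell by 0.78 (SE 0.16, 0.00451) and 0.81 (SE 0.23, 0.0402). Each pair of groups was free of overlap. Nfkb1, Nfkb2, Rel, Nfkbia, Nfkbiz, Tnfaip3, Bcl3 and Icam1 did not pass at either age, where 2.27% of all genes were lower and 2.99% higher in young cells (5.26% called), and 1.97% lower and 2.24% higher in aged cells (4.21% called). Ccl2 and Il1r1 fell at both ages (Ccl2 -1.20 ± 0.08 in young and -0.81 ± 0.08 in aged cells, 2.96e-10 and 1.84e-07; Il1r1 -0.48 ± 0.10 in both, 0.00469 and 0.00284), and Tnip1 and Sod2 in young cells (-0.72 ± 0.17 and -0.40 ± 0.09, 0.008 and 0.00791). Relb lost its call without either YCF+SoftY library or YCF+StiffA replicate 1 or 2 in young cells (0.0624 to 0.125), and without ACF+SoftY replicate 2 or 3 or ACF+StiffA replicate 1 or 2 in aged cells (0.091 to 0.27).

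For the interaction of stiffness with matrix, none of the 10 genes was called by edgeR, DESeq2 or limma, where 0.615% of all genes were called in young cells, 0.498% with a positive sign, and 0.0234% in aged cells. 1 gene had an unadjusted p under 0.05 at each age. In young cells it was Bcl3 (3.04 ± 1.00, 95% interval 0.98 to 5.11, adjusted p = 0.183), which rested on 1 to 26 counts per library, and in aged cells Vcam1 (-0.54 ± 0.23, interval -1.01 to -0.06, adjusted p = 0.876). Ccl2 and Sod2 passed in young cells (0.65 ± 0.11 and 0.64 ± 0.13, 0.00304 and 0.0114). For the interaction of cell age with stiffness, 0.787% of all genes and none of the 10 were called by edgeR, DESeq2 or limma, with Vcam1 the 1 gene at an unadjusted p under 0.05. Nfkb1, Nfkb2, Rel, Nfkbia, Nfkbiz and Tnfaip3 were not called for stiffness, matrix or their combination at either age, with 95% intervals for stiffness that lay between -0.62 and 0.43 in young and between -0.78 and 0.42 in aged cells. For matrix the intervals of these genes lay between -0.70 and 0.40 in young and between -0.46 and 0.37 in aged cells. They were wider for StiffA over SoftY and for the interaction of stiffness with matrix. For Tnfaip3 in young cells they ran from -1.08 to 0.04 for StiffA over SoftY and from -0.51 to 1.08 for that interaction.

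Because Icam1 rose while Vcam1 fell, the balance of their transcripts shifted between groups. Icam1 gave 4.14 to 5.56 counts for each 100 counts of Vcam1 in fresh YCF and 2.06 to 2.45 in fresh ACF. On SoftY it gave 13.7 and 17.6 in young cells and 15.0 to 17.9 in aged cells, and on StiffA 34.1 to 38.0 and 26.7 to 32.3. StiffY and SoftA lay between these for young cells, at 24.4 to 27.3 and 21.7 to 26.7, while for aged cells StiffY (15.9 to 19.2) overlapped SoftY and SoftA (21.0 to 25.2) lay above both. This ratio is of counts without regard to transcript length, so that it can be read between groups and not as a ratio of molecules, and it was not tested.

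**Figure D4:**
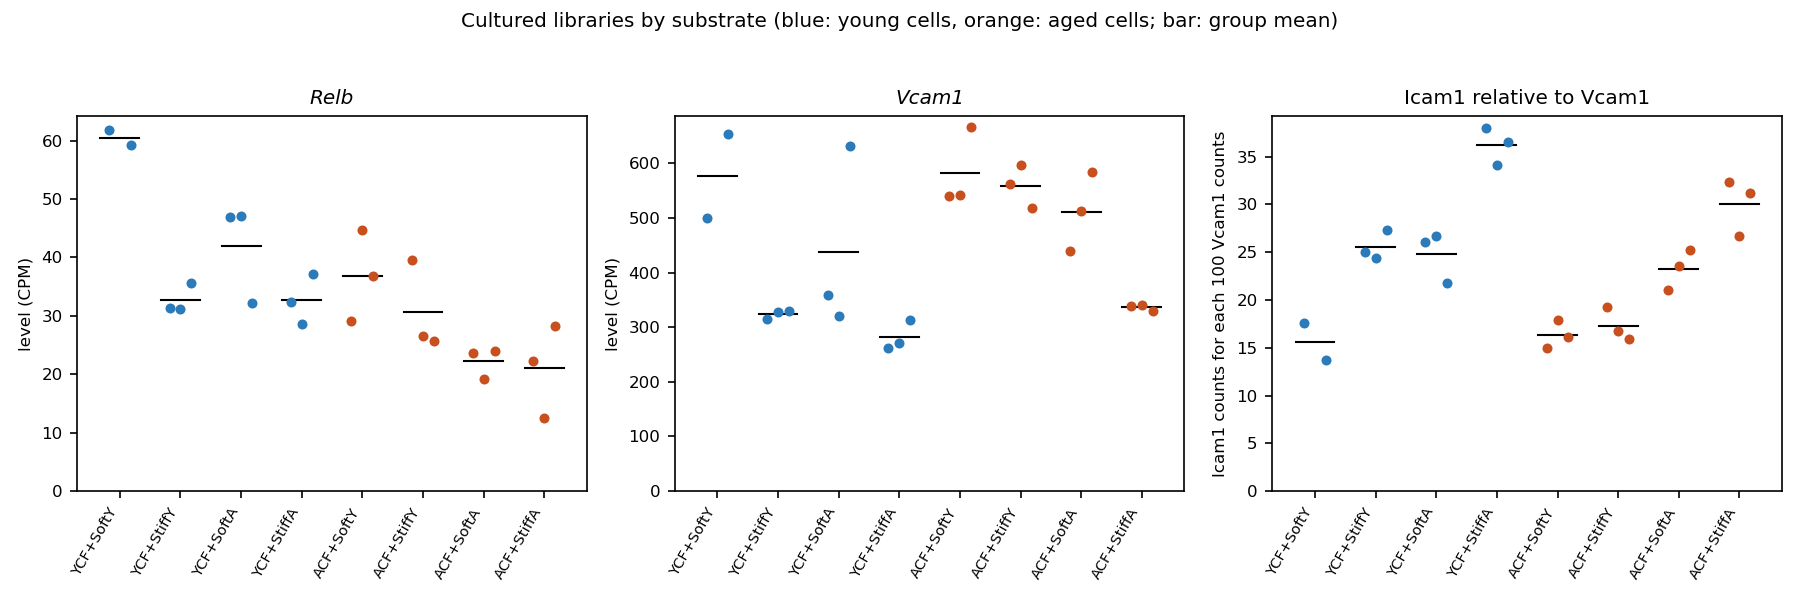
Relb and Vcam1 levels in CPM and Icam1 counts for each 100 Vcam1 counts (vertical axes, from 0) in each cultured library by substrate; blue is young cells, orange aged cells, and bars are group means. Relb is highest in YCF+SoftY at 59.2 and 61.7 CPM, Vcam1 is low on StiffA at both ages, and the ratio is highest on StiffA.

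Ordered by group mean, fresh ACF were highest for Nfkb2, Rel, Nfkbia, Nfkbiz, Tnfaip3 and Vcam1, and fresh YCF for Nfkb1 and Bcl3. Neighbours in the order mostly overlapped. Nfkbia, Nfkbiz, Tnfaip3 and Vcam1 had a gap between fresh ACF and fresh YCF, and Nfkbia, Tnfaip3, Nfkb2 and Vcam1 another between fresh YCF and the highest cultured group. Within culture, the lowest young group by mean for Nfkbia was YCF+StiffY (47.1 CPM) and the highest aged group ACF+SoftA (37.7 CPM). Their nearest libraries were close, at 41.0 and 40.7 CPM. The highest libraries of ACF+SoftY and ACF+StiffY, at 42.5 and 42.1 CPM, overlapped YCF+StiffY, so the ages were not separated. Relb placed YCF+SoftY first with a mean of 60.5 CPM, overlapping fresh ACF at 56.7 CPM and fresh YCF at 53.6 CPM, and put ACF+StiffA last at 21.0 CPM. Icam1 inverted the order, from ACF+SoftA at 120.04 CPM through all other cultured groups, which overlapped in turn, to fresh ACF at 53.7 CPM and fresh YCF at 47.0 CPM.

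Likeness of pattern was measured as Pearson's r of mean log2 CPM over the 10 groups among 8737 genes, as a description without a test, since groups share the fresh against cultured contrast. For Nfkb2 the nearest genes were Wfdc17 (r = 0.997) and Nfkbia (0.989), for Nfkbia Cxcl5 (0.993), for Rel Zc3h12a (0.986), for Nfkbiz Tgif1 (0.985) and Lgals8 (0.98), and for Tnfaip3 Nqo1 (0.985) and Mmp13 (0.982). Vcam1 lay nearest Champ1 (0.979) and Pla2g4a (0.978), Nfkb1 nearest Igf2bp2 (0.973) and Relb nearest Zfp292 (0.97). Icam1 lay nearest Fibin, Gpr108 and Itga11 (each 0.984) and had a negative r with all 9 other members, from -0.683 with Relb to -0.935 with Nfkb2. Among the members, Nfkbiz and Tnfaip3 were close to each other (0.969), and Nfkb1 and Vcam1 were not (0.419).

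Positions in mm39 are as follows, each of a protein-coding gene. Vcam1 spans chr3:115903598-115923338 and Nfkb1 chr3:135290416-135397309. Relb lies at chr7:19340142-19363364, and Bcl3 on the same chromosome at chr7:19542387-19556696. Nfkb2 spans chr19:46292759-46300825, Rel chr11:23686847-23720971, Nfkbia chr12:55536195-55539433 and Nfkbiz chr16:55631738-55659263. Tnfaip3 lies at chr10:18876658-18891406 and Icam1 at chr9:20927281-20940114.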

How the data were processed

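The submitters' processing notes name STAR 2.7.8a and mm39. Whole-number counts that the authors deposited cover 55357 genes in 29 libraries, and 1362 of the genes have no symbol. The libraries were made with a low-input kit, per the labels' protocols. The name of the deposited table credits HTSeq, with no version, gene annotation or strandedness stated, so reads of genes that overlap on opposite strands may be mixed. All tests were run with edgeR 4.0.16 under R 4.3.3 (TMM, filterByExpr by group, quasi-likelihood F test, Benjamini-Hochberg adjustment over all genes of a fit, called at an adjusted p under 0.05). Fresh libraries were fitted alone (11786 genes), the 23 cultured libraries together (12841 genes), and cultured against fresh cells over all 29 libraries (13523 genes). All 10 members passed the low-count filter in each fit. Each SE divides the size of a log2 fold change by the root of its F value, intervals are 95%, and a prior count of 2 went into log2 CPM. Means over substrates weigh groups equally. The fits were also run on simulated data with independent libraries and the same spread setting for every gene, which these data need not share. Alternatives were DESeq2 1.42.0, limma 3.58.1 (voom with quality weights), library totals without TMM, other filters, fits of 1 cell age, replicate blocks, each library left out, and, chosen after seeing the data, leaving out the 4 libraries with the lowest totals. All members were tested in each comparison, with 22 pathway genes set by name where they passed the filter. In the substrate comparisons the text gives uncalled members mostly by range and, of the 22, mainly those called. Also named are the genes most like each member with a mean of at least 10 CPM. Members and lists were chosen with earlier results of these data known. Promoter windows came from RefSeq GRCm38.p6.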

Additional observations from a re-analysis of the deposited data

Results flagged for a closer look

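For 7 genes the change with culture differed between the cell ages by the test of the interaction itself (aged change minus young change, edgeR's quasi-likelihood test with Benjamini-Hochberg adjustment). On the log2 scale the differences were -2.44 for Tnfaip3, -2.40 for Nfkbiz, -1.03 for Nfkbia, -0.98 for Vcam1, -0.89 for Rel, -0.68 for Relb and -0.53 for Nfkb2. Every one is negative, and each combines the level in fresh cells with the level in culture. For Tnfaip3, Nfkbiz and Nfkbia, fresh aged cells were higher and cultured aged cells lower than young cells of the same state. For Vcam1 aged cells were higher in both states, in culture as a mean over the substrates. With 2 or 3 libraries in a group, single genes were not screened for an outlying library.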

How the results depend on the processing

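None of the 150 results (10 genes in 15 comparisons) changed sign while called in any alternative run. Across settings other than leaving out a library, 1184 of their values kept their side of the threshold, 11 gained and 11 lost a call. With each library left out, 3397 kept it, 7 gained and 56 lost it. A YCF+SoftY library left out leaves 1, which is then assumed to vary like the other groups. With libraries left out, the number of the 10 genes called ran from 4 to 6 (5 in full) for age in fresh cells, 6 to 10 (9) and 8 to 10 (10) for culture in young and aged cells, 5 to 7 (7) for the interaction of age with culture, and 6 to 8 (8) for age in culture. It ran from 1 to 2 (2) for stiffness in young cells, for matrix in aged cells and for StiffA over SoftY at both ages, and from 0 to 1 (0) for stiffness in aged and matrix in young cells. Those last 2 counts also went from 0 to 1 without a low-count filter and without the 4 shallowest libraries, as did stiffness in the fit of aged cells alone and matrix in young cells by limma. StiffA over SoftY in aged cells went from 2 to 1 in the fit of aged cells alone. The cause was not tested.

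Library totals without TMM moved the median of all genes by over 0.1: from -0.02 to -0.14 for age in fresh cells, from -0.03 to -0.14 for culture in young cells and from -0.01 to 0.19 for the interaction of age with culture, where the calls of Nfkb2 (-0.34, adjusted p = 0.193) and Relb (-0.49, 0.0948) were lost and 5 of 10 remained. The share of higher genes among all calls went from 47.2% to 30.7% for age in fresh cells, 43.4% to 56.6% for age in culture, 66.9% to 49.1% and 55.6% to 40.9% for matrix in young and aged cells, 56.8% to 43.6% and 53.2% to 37.5% for StiffA over SoftY, and 50.9% to 75.4% for the interaction; DESeq2 moved stiffness by matrix in young cells from 81% to 52.2%. For the interaction of age with culture, adjusted p of Nfkb2 ran from 0.0503 to 0.132 without each of 17 libraries in turn.

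Same-numbered titles had a median correlation of 0.0264 in culture, with 28 of 77 pairs over 0.1. Many of these pairs join a young with an aged library, so they cannot show whether titles pair samples within a cell age. Within a cell age, title numbers and library-name numbers group the same libraries, except for YCF+SoftY replicate 2 (library E3). The numbers in the library names had 0.179, with 24 of 33 pairs over 0.1, and 18 of 23 cultured libraries correlated best with their own number, a hint from the data and not the design. With a replicate block by title number the counts of members called stayed at 5, 9, 10, 7 and 8 in the comparisons of age and culture and at 2, 0, 0 and 2 for stiffness and matrix. With a block by library name, culture in young cells had 10, as Rel gained a call (-0.33, adjusted p = 0.047). No such block was run for age in culture or the interactions with cell age, since each of these numbers belongs to a single cell age. If they mark shared preparations, libraries there are not independent and those p-values may be too small.

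Depth limits Bcl3, at 0 to 29 counts per library, which a stricter filter of 10 CPM removes.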
